A study of Mus musculus with 12 samples.

Results

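To ask how inhibition of pyruvate dehydrogenase kinase alters the transcriptome of the septic liver, livers of septic mice given dichloroacetate (DCA) were compared gene by gene with livers of septic mice without it. The 4 CLP+DCA and the 4 CLP mice were taken by the condition in their labels and make up 8 of the 12 livers sequenced, the other 4 being sham. All were male C57BL/6J mice of 8 to 10 weeks. In CLP mice the cecum was tied off and punctured 2 times with a 22-gauge needle, which spills gut bacteria into the abdomen, whereas sham mice had the incision alone. CLP+DCA mice had the same operation and received DCA at 25 mg/kg into the abdomen 24 hr post-surgery. Every mouse was given saline under the skin, and whole livers of each group were collected 30 hr post-surgery, which is 6 hr after DCA. Each library is the liver of 1 mouse. The labels speak of an injection 24 hr post-surgery in all groups, but what CLP and sham mice received is not given in the sources used here, and no mice with DCA but without CLP were analysed here, so that an effect of DCA that needs sepsis cannot be told apart from one that does not.

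The pyruvate dehydrogenase complex turns pyruvate into acetyl-CoA in mitochondria, and its kinases (PDK1 to PDK4) phosphorylate it and switch it off. DCA resembles pyruvate, binds these kinases and keeps the complex active, so that its direct target is an enzyme and not a gene. The liver of a septic mouse secretes acute phase proteins in bulk, takes up neutrophils and lowers much of its metabolic gene expression, and sham livers are given beside the septic ones to show where a gene stands in a liver without infection.

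Between 24436513 and 44266819 reads per CLP liver and between 28885969 and 40251177 per CLP+DCA liver were assigned to genes, and expression is given as CPM, the read count of a gene scaled to a common library size after TMM normalization. Markers of hepatocytes were abundant in each library, with 15323 to 24432 CPM of Alb, which encodes albumin, in CLP and 15515 to 33314 in CLP+DCA. Of the 8 septic livers, 2 stood apart from their groups. CLP 3 carried RNA of skeletal muscle, with 27929 reads of Acta1, the actin of skeletal muscle, against 1 to 13 in the other CLP and 0 to 2 in the CLP+DCA livers. The summed level of 24 muscle markers in CLP 3, of which 4 passed the filter, was 3673 CPM, against at most 11.8 in any other mouse. CLP+DCA 3 lay nearer to the CLP livers than to its own group: its mean distance, taken as the root mean square difference in log2 CPM over all genes, was 0.729 to the CLP and 1.02 to the other CLP+DCA livers. The other CLP+DCA livers were 0.682 to 0.739 from CLP and 0.420 to 0.503 from sham, and the distances among these 3 livers were 0.334, 0.382 and 0.448. In 9433 of 13190 genes (71.5%), the log2 CPM of CLP+DCA 3 was closer to the mean of CLP than to that of the other 3 CLP+DCA mice. Results that rest on either liver are therefore given with and without it. Leaving out CLP+DCA 3 was chosen because of its values, so that a count obtained without it shows what the other 3 mice share and is not independent evidence of a larger response.

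**Figure D1:**
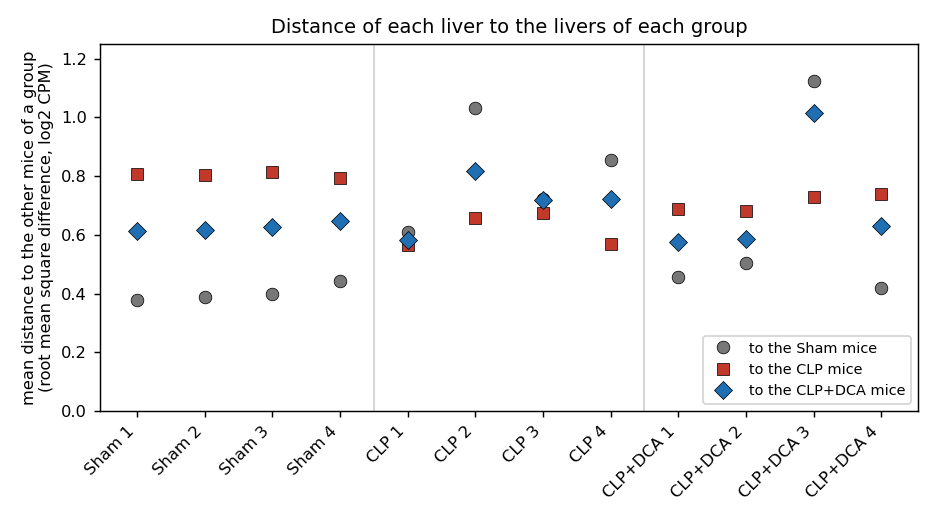
Mean distance of each liver (x axis) to the other mice of the sham, CLP and CLP+DCA groups (y axis, root mean square difference in log2 CPM over all genes tested). CLP+DCA 3 lies at 0.729 from the CLP and at 1.02 from the other CLP+DCA livers, while CLP+DCA 1, 2 and 4 lie nearer to the sham than to the CLP livers. Their distance to CLP+DCA includes that to CLP+DCA 3.

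Across all genes the difference between the groups was small against the spread between mice. A single DEG was found at an FDR of 0.05 with edgeR's quasi-likelihood test, Irf7, which is 0.00758% of 13190 genes tested, and the next adjusted p was 0.0718. At an unadjusted p under 0.05 stood 1319 genes (10%), of which 667 (5.06%) were higher and 652 (4.94%) lower in CLP+DCA. With DESeq2, 80 DEGs were found among the 8 septic mice and 136 with the sham mice in the fit, and limma's voom with weights for the quality of each library gave 1287, with CLP+DCA 3 at the lowest weight of 0.125. The count was 0 without Sham 1, Sham 3, CLP 1, CLP 2, CLP 4, CLP+DCA 1 or CLP+DCA 2, and 2 without Sham 2 or Sham 4. It was 8 without CLP 3 (0.0603%, with 0.0226% higher and 0.0377% lower), 616 without CLP+DCA 3 (4.64%, with 2.01% higher and 2.63% lower) and 2227 without both (16.9%, with 8.27% higher and 8.64% lower). In 576 genes (4.37%) the 4 CLP and 4 CLP+DCA values did not overlap at all, with 306 (2.32%) higher and 270 (2.05%) lower in every CLP+DCA mouse. The median log2 fold change of all genes was 0.01. Scaling to library size alone moved it to 0.12 and the split of genes under an unadjusted p of 0.05 to 1220 higher and 375 lower.

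Genes induced by interferon were higher in CLP+DCA, CLP+DCA 3 included. All 38 interferon-stimulated genes tested were higher in CLP+DCA than in CLP, with a median log2 fold change of 0.64 against 0.01 over all genes. Of them 27 were under an unadjusted p of 0.05, against 5.06% of all genes. In 13 of 38 every CLP+DCA mouse was above every CLP mouse, which held for 2.32% of all genes. Interferons bind receptors at the cell surface and, through transcription factors such as IRF9, switch on genes whose products degrade viral RNA, present antigen or amplify the signal. The score of the list, which is the mean log2 CPM of its genes relative to sham, was -0.31, -0.91, -0.22 and -0.78 in CLP 1 to 4, and 0.21, 0.12, 0.27 and 0.04 in CLP+DCA 1 to 4. All CLP livers thus lay below the sham mean and all CLP+DCA livers above it, CLP+DCA 3 with the highest score. It was nearer to CLP than to the other CLP+DCA mice in 8 of the 38 genes (21.1%), against 71.5% of all genes.

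Irf7, which encodes the transcription factor that amplifies type I interferon production (mm10 chr7:141263183-141266424, minus strand), was the gene that passed the FDR. Its level was 31.3, 31.8, 31.4 and 25.8 CPM in Sham 1 to 4, 20.1, 18.5, 20.6 and 18.2 CPM in CLP 1 to 4 and 36.6, 41.0, 43.2 and 30.7 CPM in CLP+DCA 1 to 4. The groups did not overlap, and 3 of the CLP+DCA livers exceeded every sham liver. Irf7 rose by 0.97 ± 0.11 (SE, n = 4 against 4) on the log2 scale, or 1.96-fold, with an adjusted p of 0.0257 in edgeR's quasi-likelihood test. In the same fit Irf7 was lower in CLP than in sham (log2 difference -0.64 ± 0.11, edgeR adjusted p = 0.0254), a comparison that shares the CLP mice, as does the median of -0.37 of the 38 genes in CLP minus sham. The size of the rise was similar under 23 alternative settings (0.90 to 1.07), while its adjusted p ranged from 7.24e-10 to 0.196 and passed in 15. Without single mice the call was lost without Sham 1 (0.0771), Sham 3 (0.0737), CLP 1 (0.148), CLP 2 (0.103), CLP 4 (0.196), CLP+DCA 1 (0.113) or CLP+DCA 2 (0.128), and with edgeR on the 8 septic mice alone (0.163). Without CLP+DCA 3 it was 0.00779, and without CLP 3 0.0430.

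The other interferon-stimulated genes without overlap were Oasl1, Isg15, Ifit1, Ifit3, Irf9, Ifi44, Mx1, Mx2, Usp18, Gbp3, Cmpk2 and Oas1a. Oasl1, a relative of the enzymes that sense double-stranded RNA, was at 5.0, 3.21, 4.79 and 4.85 CPM in CLP and 9.45, 8.27, 9.34 and 11.4 CPM in CLP+DCA (1.10 ± 0.17, adjusted p = 0.0718). Isg15, a ubiquitin-like modifier, was at 4.61, 5.07, 5.08 and 3.502 CPM in CLP and 7.79, 9.68, 10.7 and 7.13 CPM in CLP+DCA (0.95 ± 0.15, adjusted p = 0.105). The highest CLP value of each gene lay under its lowest CLP+DCA value. Ifit3, whose product binds foreign RNA, was at 2.95, 1.29, 4.01 and 1.44 CPM in CLP and 7.92, 5.95, 8.18 and 7.25 CPM in CLP+DCA (1.56 ± 0.30). Ifit1, its relative, was at 3.36, 1.01, 4.45 and 1.44 CPM and 7.95, 5.88, 8.23 and 8.33 CPM (1.53 ± 0.36). In both Ifit genes CLP 2 and CLP 4 held the lowest values, while the 4 CLP+DCA livers were at the lower edge of the sham range or above it, which was 5.92 to 7.47 CPM for Ifit3 and 5.48 to 7.03 CPM for Ifit1. Irf9, the DNA-binding subunit of the factor that carries the interferon signal to the nucleus, was at 30.1, 23.7, 32.2 and 27.5 CPM in CLP and 38.6, 40.0, 41.5 and 40.3 CPM in CLP+DCA (0.50 ± 0.09). Fold changes of Ifi44 (1.28 ± 0.26), Mx1 (1.24 ± 0.31), which encodes a GTPase that blocks influenza virus, and Gbp3 (0.97 ± 0.23) rested on levels under 7 CPM. Usp18, which removes Isg15 from proteins, was at 4.59 to 5.83 CPM in CLP and 8.49, 7.83, 16.8 and 7.95 CPM in CLP+DCA, with its highest value in CLP+DCA 3 (0.98 ± 0.25). Samd9l, an interferon-induced gene outside the list, was 8.13 to 9.07 CPM in CLP and 11.1 to 12.2 CPM in CLP+DCA (0.46 ± 0.08).

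**Figure D2:**
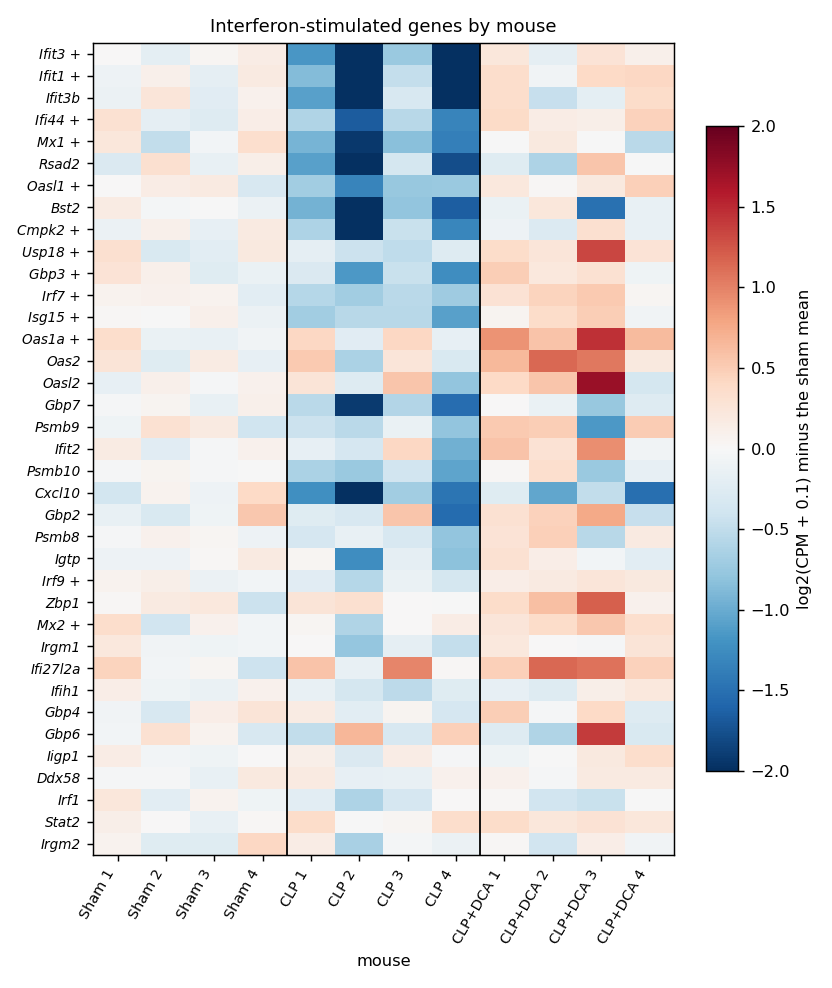
Expression of 37 interferon-stimulated genes (rows, ordered by log2 fold change) in each of the 12 livers (columns), as log2(CPM + 0.1) minus the sham mean, with the color scale capped at its ends. A plus sign marks the 13 genes in which every CLP+DCA mouse is above every CLP mouse, and the CLP columns are bluer than the CLP+DCA columns, CLP+DCA 3 included.

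In other members of the list CLP+DCA 3 lay in or under the CLP range. Bst2, which tethers budding virus to the cell, was at 50.9, 24.7, 56.5 and 31.3 CPM in CLP and 89.4, 115, 34.8 and 88.2 CPM in CLP+DCA. The immunoproteasome subunit Psmb9 was at 8.53, 7.95, 10.5 and 6.69 CPM in CLP, and at 16.8, 16.3 and 16.5 CPM in CLP+DCA 1, 2 and 4 against 5.15 CPM in CLP+DCA 3. In both genes 3 CLP+DCA mice were above every CLP mouse and CLP+DCA 3 was not. The number of interferon-stimulated genes higher past the FDR was 1 with all mice, 12 without CLP+DCA 3, 2 without CLP 3 and 19 without both. Among all genes the shares were 0.00758%, 2.01%, 0.0226% and 8.27%. The median of the list stayed between 0.51 and 0.86 in the 23 alternative settings. Over these, 36 to 38 of the 38 genes were higher in CLP+DCA. In whole liver, a higher level per cell and more of the cells that express a gene cannot be told apart. Of 20 lymphocyte markers 7 passed the filter and 5 of them were higher in CLP+DCA, with sums of 7.68 to 11.4 CPM in CLP and 9.38 to 14.7 CPM in CLP+DCA. Below the filter, the T cell marker Cd3e had 1 to 9 reads in CLP and 6 to 16 in CLP+DCA, and the B cell marker Ms4a1 was at 0 reads in CLP 2, CLP 4 and CLP+DCA 3. Of 19 Kupffer cell and macrophage markers 18 passed it and 13 were higher, with sums of 502 to 653 CPM and 464 to 809 CPM. Their part in the interferon-stimulated genes was not tested.

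Promoters of 4 of these genes are shown because the members were higher together and IRF9 and its partners act through a known DNA element. This interferon-stimulated response element was searched as GAAANNGAAA, on either strand, in the 250 bases before the start site (RefSeq, GRCm38.p6). It was found in 15 of 32 windows of the interferon-stimulated genes (46.9%), with 28 of 38 genes in the promoter table, and in 362 of 13367 windows of all tested genes (2.71%). Of the 13 genes without overlap, 10 had a window and 5 held a match, Gbp3, Ifit1, Ifit3, Isg15 and Oas1a. The window of Irf7 (chr7:141266425-141266674, minus strand) held none, and those of Isg15 (chr4:156200819-156201068, minus strand), Ifit1 (chr19:34640639-34640888, plus strand) and Ifit3 (chr19:34583279-34583528, plus strand) held 3, 2 and 2. Matches are in capitals, those of Isg15 overlapping each other, and the last base adjoins the start site:
Isg15: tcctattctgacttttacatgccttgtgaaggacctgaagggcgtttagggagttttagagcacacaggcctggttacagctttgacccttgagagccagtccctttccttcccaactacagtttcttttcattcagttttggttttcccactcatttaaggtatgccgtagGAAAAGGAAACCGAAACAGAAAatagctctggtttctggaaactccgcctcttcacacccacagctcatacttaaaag
Ifit1: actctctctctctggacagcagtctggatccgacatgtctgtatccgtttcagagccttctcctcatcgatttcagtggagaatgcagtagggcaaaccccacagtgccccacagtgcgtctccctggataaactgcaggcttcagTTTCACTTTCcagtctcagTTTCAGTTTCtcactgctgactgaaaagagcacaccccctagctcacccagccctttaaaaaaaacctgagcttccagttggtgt
Ifit3: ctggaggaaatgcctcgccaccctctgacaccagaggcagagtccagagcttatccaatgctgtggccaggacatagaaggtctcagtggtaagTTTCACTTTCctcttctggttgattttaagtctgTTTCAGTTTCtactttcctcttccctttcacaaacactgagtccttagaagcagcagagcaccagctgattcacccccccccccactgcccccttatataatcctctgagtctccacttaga
Irf7: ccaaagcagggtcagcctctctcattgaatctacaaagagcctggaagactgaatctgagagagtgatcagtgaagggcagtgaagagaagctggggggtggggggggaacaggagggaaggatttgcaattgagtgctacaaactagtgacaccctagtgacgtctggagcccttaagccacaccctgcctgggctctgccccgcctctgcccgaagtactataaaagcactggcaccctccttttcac

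Several genes of the stress response, the clock and hormone action were also higher in all 4 CLP+DCA mice. Dusp1, which encodes the phosphatase that shuts off MAP kinases and is induced by glucocorticoids (mm10 chr17:26505591-26508472, minus strand), was at 9.89, 12.4, 12.7 and 8.08 CPM in CLP and 36.7, 55.6, 27.3 and 33.2 CPM in CLP+DCA. Its lowest CLP+DCA value, that of CLP+DCA 3, was above the highest CLP value of 12.7 CPM, and Dusp1 lay 3.54-fold higher on average (1.82 ± 0.25, adjusted p = 0.0718). Sham livers held 16.1 to 30.4 CPM. Dusp1 passed the FDR without Sham 4 (0.0373) and without CLP+DCA 3 (0.00779). Per1 did so without Sham 2 (0.0382) and without CLP+DCA 3 (0.0211). Without both CLP+DCA 3 and CLP 3 the adjusted p was 0.00451 for Dusp1 and 0.0114 for Per1.

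Per1, a repressor of the circadian clock that glucocorticoids and cAMP also induce, was at 23.9, 28.8, 29.9 and 28.2 CPM in CLP and 51.0, 57.6, 56.0 and 43.1 CPM in CLP+DCA (0.91 ± 0.15). Here CLP was near the sham range of 20.2 to 32.7 CPM, and every CLP+DCA mouse lay above all 8 others. Bhlhe40, another clock repressor, was at 58.1, 39.0, 69.3 and 39.4 CPM and 129, 111, 269 and 138 CPM (1.65 ± 0.29), highest in CLP+DCA 3. Sik1, the salt-inducible kinase that restrains glucose production, was at 14.3, 16.9, 11.9 and 13.2 CPM and 27.0, 30.1, 50.9 and 27.2 CPM (1.27 ± 0.24), again highest in CLP+DCA 3. Noct, or nocturnin, a rhythmic phosphatase, was at 10.5, 6.94, 11.3 and 6.29 CPM and 54.5, 78.2, 17.7 and 41.7 CPM (2.45 ± 0.50), with the lowest CLP+DCA value in CLP+DCA 3. None of these 4 genes overlapped between the groups.

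Of the 19 clock genes tested, 12 were higher and 7 lower in CLP+DCA, with a median of 0.51. At an unadjusted p under 0.05 stood 7 higher and 1 lower, against 5.06% and 4.94% of all genes. The clock output factor Dbp was at 14.1, 1.34, 34.6 and 3.91 CPM in CLP and 46.7, 56.0, 3.44 and 68.1 CPM in CLP+DCA (1.67 ± 0.87). Per2, a partner of Per1, was at 20.5, 19.9, 17.5 and 21.8 CPM and 41.4, 41.9, 20.5 and 46.5 CPM (0.91 ± 0.23). Arntl, the activator of the clock, ran the other way, at 7.44, 16.3, 5.80 and 11.0 CPM and 4.15, 1.88, 13.9 and 1.81 CPM (-0.88 ± 0.60). CLP+DCA 3 lay within the CLP range in Dbp, Per2 and Arntl, and the other 3 CLP+DCA mice outside it. Without CLP+DCA 3 the clock list had 5 higher and 2 lower genes past the FDR, against 2.01% and 2.63% of all genes. Without both CLP+DCA 3 and CLP 3 the list had 11 and 2, with a median of 0.81, against 8.27% and 8.64% of all genes. The hour of day at which livers were taken is not given in the sources used here.

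Of 15 glucocorticoid targets, 9 were higher and 6 lower, with a median of 0.08 (0.03 without CLP 4, 0.13 without CLP 2), so that the list as a whole did not move one way. Besides Dusp1 and Per1, Tat, tyrosine aminotransferase, was higher without overlap, at 1019, 2404, 1279.6 and 1371 CPM in CLP and 3168, 2904, 2538 and 2427 CPM in CLP+DCA (0.86 ± 0.24). Fkbp5, a chaperone that damps the glucocorticoid receptor, was lower without overlap, at 141, 195, 136 and 171 CPM and 108, 116, 99.5 and 60.4 CPM (-0.75 ± 0.22), and Klf9 was at 108 to 125 CPM and 72.5 to 104 CPM (-0.35 ± 0.17). Fkbp5 stood at 30.2 to 49.7 CPM in sham, below both septic groups. Tsc22d3, which encodes the glucocorticoid-induced leucine zipper, was at 155, 186 and 111 CPM in CLP+DCA 1, 2 and 4 and 33.0 CPM in CLP+DCA 3, against 49.2 to 72.1 CPM in CLP.

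Several higher genes without overlap act in mitochondria, growth signalling and lipid handling. Coq10b, which binds coenzyme Q in mitochondria, was at 17.9, 20.9, 28.7 and 18.3 CPM in CLP and 52.1, 54.3, 39.5 and 48.8 CPM in CLP+DCA (1.18 ± 0.20). Gdf15, a hormone released under stress that lowers appetite, was at 6.06, 4.31, 3.34 and 2.87 CPM and 25.7, 10.3, 17.1 and 15.6 CPM (2.04 ± 0.49). Fabp5, a fatty acid binding protein, was at 8.34, 20.4, 13.4 and 6.69 CPM and 26.6, 60.4, 45.7 and 37.2 CPM (1.80 ± 0.38), against 38.6 to 80.6 CPM in sham. Cyp26a1, which degrades retinoic acid, was at 4.49, 1.58, 5.13 and 3.46 CPM and 10.4, 16.8, 6.04 and 40.7 CPM (2.31 ± 0.53), highest in CLP+DCA 4 and lowest of its group in CLP+DCA 3. Rela, the p65 subunit of NF-kappaB, differed by less (0.34 ± 0.07) but with little spread, at 43.4 to 45.3 CPM in CLP and 52.0 to 61.6 CPM in CLP+DCA. Bcl6, a repressor of lipid genes that growth hormone lowers, was at 12.5 to 24.7 CPM and 26.3 to 76.2 CPM (1.32 ± 0.47). Coq10b passed the FDR without CLP 3 (0.0430) and without CLP+DCA 3 (0.0155).

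**Figure D3:**
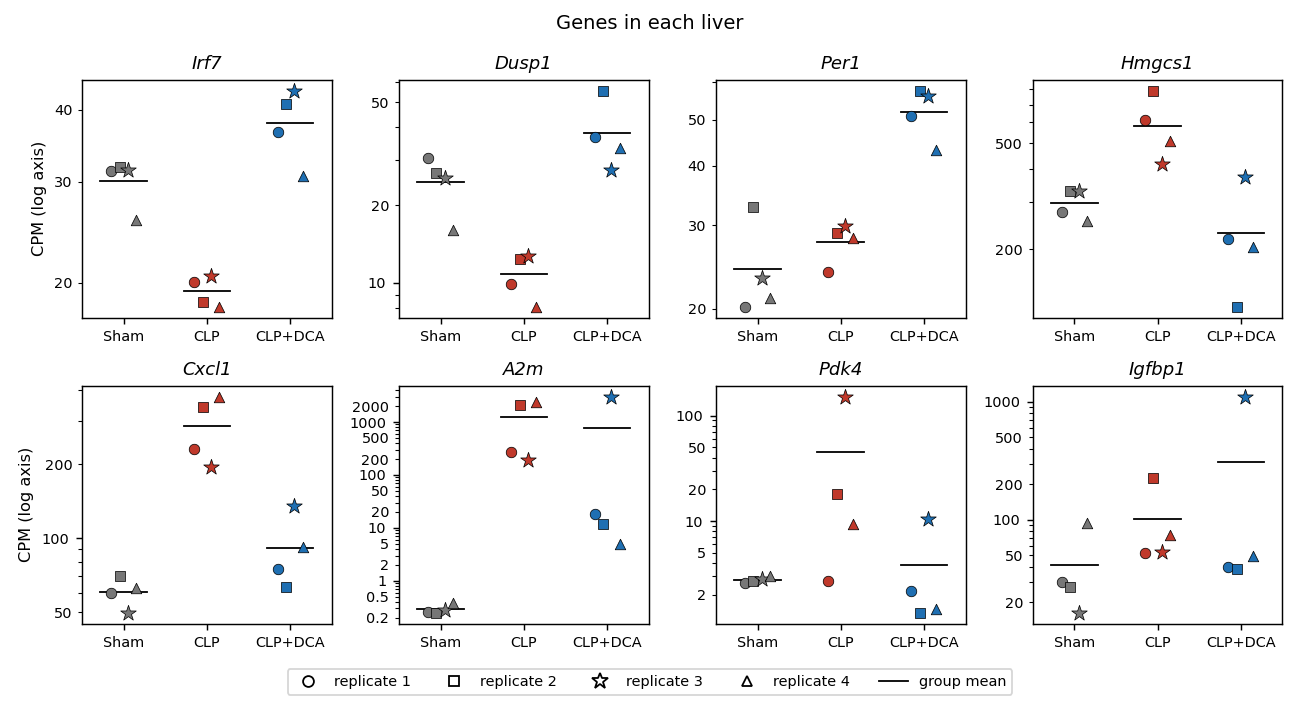
CPM (log axis) of 8 genes in each sham, CLP and CLP+DCA liver, with 1 symbol per replicate and the group mean as a line. Irf7, Dusp1 and Per1 are higher and Hmgcs1 and Cxcl1 lower in all 4 CLP+DCA mice, whereas in A2m and Igfbp1 replicate 3 of CLP+DCA, and in Pdk4 replicate 3 of CLP, lies far above the others of its group.

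Genes of cholesterol synthesis were lower in CLP+DCA. Of 23 genes of sterol synthesis and uptake, 22 were lower in CLP+DCA than in CLP, with a median log2 fold change of -0.71. At an unadjusted p under 0.05 stood 16 lower ones, and 8 were lower without overlap, against 4.94% and 2.05% of all genes. The pathway builds cholesterol from acetyl-CoA under the transcription factor SREBP2, which is active when cells sense too little sterol. The score of the list was 0.32, 0.48, -0.04 and 0.15 in CLP 1 to 4 and -0.25, -0.87, -0.14 and -0.38 in CLP+DCA 1 to 4, so that the groups did not overlap, CLP 3 and CLP+DCA 3 lying closest to each other. CLP+DCA 3 was nearer to the mean of CLP than to that of the other CLP+DCA mice in 13 of the 23 genes (56.5%), against 71.5% of all genes. For CLP minus sham, which shares the CLP mice, the median of the list was 0.45. None of the 23 genes passed the FDR with all mice in edgeR, 12 did so without CLP+DCA 3, 0 without CLP 3, and 16 lower and 1 higher without both. Among all genes 2.63% were lower past the FDR without CLP+DCA 3 and 8.64% without both. DESeq2 called 3 of the 23 genes on the 8 septic mice and 6 on all 12, against 0.439% and 0.734% of all genes. With voom 13 were lower and 1 higher, against 674 lower and 613 higher of 13190 genes (9.76% in both directions together).

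Hmgcs1, which makes the first committed intermediate of the pathway in the cytosol (mm10 chr13:119690351-119708260, plus strand), was at 614, 790.2, 418 and 512 CPM in CLP and 219, 121, 373 and 204 CPM in CLP+DCA. It was 2.55-fold lower on average (-1.35 ± 0.30, adjusted p = 0.178), and CLP+DCA 3 with 373 CPM stood just under CLP 3 with 418 CPM. Without CLP+DCA 3 the difference was -1.69 ± 0.25 (adjusted p = 0.0116). Fdft1, squalene synthase, was at 197, 226, 163 and 163 CPM in CLP and 110.2, 82.0, 119 and 105 CPM in CLP+DCA (-0.85 ± 0.15, adjusted p = 0.122). Its CLP+DCA values all lay under those of sham (132 to 171 CPM) as well.

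The remaining genes without overlap spanned the pathway. They were Mvk, mevalonate kinase (-0.73 ± 0.17), Idi1, which isomerizes the isoprene unit (-0.89 ± 0.26), the demethylation enzymes Cyp51 (-0.73 ± 0.21), Msmo1 (-0.85 ± 0.22) and Nsdhl (-0.66 ± 0.19), and Dhcr7, which makes cholesterol in the last step (-0.84 ± 0.21). Mvd (-1.01 ± 0.30), Fdps (-0.99 ± 0.30) and Lss (-0.91 ± 0.29) overlapped through CLP+DCA 3 alone. Sqle, squalene epoxidase, was at 193, 260.1, 141 and 224 CPM in CLP and 110, 66.8 and 86.3 CPM in CLP+DCA 1, 2 and 4, against 236 CPM in CLP+DCA 3. Srebf2, the gene of SREBP2, was at 95.8, 101, 77.7 and 97.1 CPM and 70.01, 58.9, 78.6 and 71.0 CPM (-0.42 ± 0.11). Tm7sf2, a sterol reductase, was the exception, at 63.8 to 87.1 CPM in CLP and 51.5 to 109 CPM in CLP+DCA (0.24 ± 0.20).

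**Figure D4:**
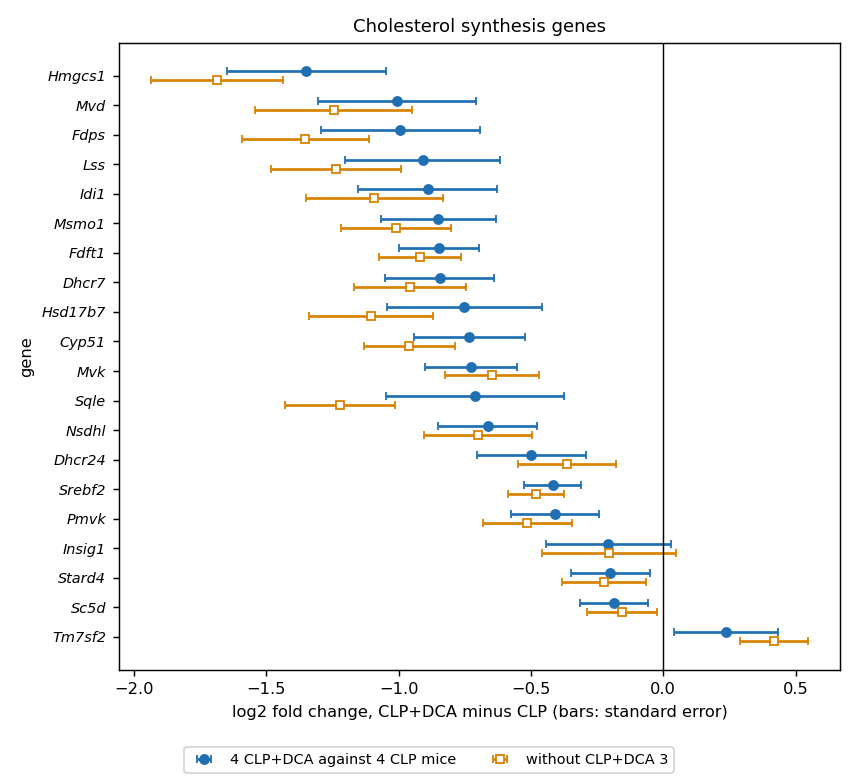
Log2 fold change (x axis, CLP+DCA minus CLP, bars are the standard error) of 20 genes of cholesterol synthesis with all mice (filled) and without CLP+DCA 3 (open). In both fits 19 of the 20 genes lie left of 0, from Hmgcs1 at -1.35 with all mice to Tm7sf2 at 0.24.

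The promoter of Hmgcs1 is printed as the gene of this group with the largest difference and the one with a sterol regulatory element in the window searched. The element, searched as TCACNCCAC on either strand, was found in 1 of 18 windows of the cholesterol genes, with 15 of 23 genes in the table, and in 145 of 13367 windows of all genes (1.08%). The window of Hmgcs1 is chr13:119690101-119690350 (plus strand, GRCm38.p6, RefSeq), with the match in capitals beginning 137 bases before the start site:
Hmgcs1: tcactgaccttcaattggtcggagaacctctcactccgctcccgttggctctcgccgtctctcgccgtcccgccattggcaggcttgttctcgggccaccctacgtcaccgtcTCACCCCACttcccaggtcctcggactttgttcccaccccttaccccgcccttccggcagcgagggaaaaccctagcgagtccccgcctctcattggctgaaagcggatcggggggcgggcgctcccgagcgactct

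Genes of fatty acid and triglyceride synthesis were mixed. Of 20 lipogenic genes 9 were higher and 11 lower. At an unadjusted p under 0.05 stood 4 higher and 1 lower, against 5.06% and 4.94% of all genes. Thrsp, an insulin- and thyroid-responsive gene of lipogenesis, was at 17.0, 12.7, 21.4 and 7.77 CPM in CLP and 84.7, 77.9, 16.8 and 36.9 CPM in CLP+DCA (1.87 ± 0.47). Srebf1, the lipogenic counterpart of Srebf2, was at 140.3, 45.2, 90.8 and 73.9 CPM and 266, 189, 51.3 and 256 CPM (1.12 ± 0.44). In both, CLP+DCA 3 lay within the CLP range and the other 3 CLP+DCA mice above it. Sham livers held 72.7 to 137 CPM of Thrsp and 305 to 356 CPM of Srebf1. Scd1, stearoyl-CoA desaturase, was at 138 to 663 CPM and 580 to 828 CPM (1.12 ± 0.46), against 1525 to 3566 CPM in sham. Of 24 genes of triglyceride synthesis and lipid droplets 15 were lower (median -0.16, and between -0.20 without CLP 1 and -0.01 without CLP 2 when 1 mouse was left out).

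The lower genes without overlap also included signalling, iron and structural genes. Hfe2, which encodes hemojuvelin, a coreceptor that sets hepcidin expression (mm10 chr3:96525185-96529216, plus strand), was at 99.4, 117, 96.0 and 111 CPM in CLP and 61.4, 72.2, 69.5 and 71.5 CPM in CLP+DCA (-0.62 ± 0.09, adjusted p = 0.0718). Its CLP+DCA values lay under those of sham (77.4 to 85.5 CPM), and it passed the FDR without CLP 3 (0.0430) and without CLP+DCA 3 (0.0155). Cxcl1, a chemokine that draws neutrophils, was at 49.7 to 70.4 CPM in sham, 231, 340, 194 and 376 CPM in CLP and 74.7, 63.6, 135 and 92.1 CPM in CLP+DCA (-1.64 ± 0.26, adjusted p = 0.0967). In Cxcl1 CLP+DCA 3 was the highest of its group and still under CLP 3, the lowest of CLP, and the FDR was passed without either (adjusted p = 0.00779 without CLP+DCA 3, 0.0430 without CLP 3). Spon2, a secreted matrix protein, was at 10.9, 9.53, 11.0 and 12.03 CPM and 3.67, 2.86, 4.87 and 2.93 CPM (-1.60 ± 0.24, adjusted p = 0.0718).

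Ctf1, cardiotrophin, a cytokine of the IL-6 family, was at 4.62 to 5.79 CPM in CLP and 2.81 to 3.33 CPM in CLP+DCA (-0.72 ± 0.13), with sham at 4.13 to 5.55 CPM. Rab36, a Golgi GTPase, was at 11.8, 11.6, 6.31 and 12.3 CPM and 5.27, 3.66, 3.03 and 3.94 CPM (-1.40 ± 0.25) and passed the FDR without CLP 3 (0.0430), without CLP+DCA 3 (0.0292) and without both (0.00451). Bok, a relative of BCL2 (-0.68 ± 0.13), Asah1, acid ceramidase (-0.40 ± 0.08), Lgalsl, a galectin-like protein (-0.88 ± 0.17), and Thra, a thyroid hormone receptor (-0.55 ± 0.11), were lower in each CLP+DCA mouse than in any CLP mouse. Crat, which moves acetyl groups between coenzyme A and carnitine, was at 92.1, 112, 113 and 111 CPM and 38.8, 43.8, 73.1 and 35.9 CPM (-1.16 ± 0.25). Foxa2, a liver transcription factor, was at 25.7 to 31.5 CPM and 16.3 to 22.4 CPM (-0.62 ± 0.14), and Pim1, a kinase induced by STAT3, at 29.6 to 33.3 CPM and 12.1 to 26.5 CPM (-0.73 ± 0.23). Csad (-0.55 ± 0.17) and Cdo1 (-0.47 ± 0.17), which make taurine from cysteine, were also lower without overlap. Lrtm1 (-1.61 ± 0.35) was lower too, at 4.68 to 12.7 CPM in CLP and 1.68 to 3.82 CPM in CLP+DCA. Myom3, a sarcomere protein, was at 3.78, 28.9, 7.79 and 15.7 CPM in CLP and 0.575, 0.370, 3.09 and 0.604 CPM in CLP+DCA (-3.56 ± 0.80), and its highest value was in CLP 2 and not in CLP 3. In 3 other genes without overlap CLP 3 lay far above the rest of its group. Cryab, a small heat shock protein abundant in muscle, was at 65.1 CPM there against 2.58, 2.82 and 2.78 CPM in the other CLP mice, and 1.95 to 2.19 CPM in CLP+DCA (-3.16 ± 0.99). Twf2, an actin-binding protein, was at 17.5 CPM there and Krt19, a keratin of bile ducts, at 3.75 CPM. Without CLP 3 the adjusted p of Cryab, Twf2 and Krt19 was 0.353, 0.415 and 0.239, and the part of muscle RNA in them was not tested.

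For genes of acute phase proteins the difference between the groups depended on CLP+DCA 3. These plasma proteins are made by hepatocytes under IL-6 and IL-1. Of 35 tested, 29 were lower in CLP+DCA with a median of -0.42, none passed the FDR, and none separated the groups. The list score was 1.59, 2.45, 1.42 and 2.33 in CLP 1 to 4 and 0.84, 1.17, 2.34 and 0.66 in CLP+DCA 1 to 4. CLP+DCA 3 lay at the level of CLP 2 and CLP 4, and the other 3 CLP+DCA mice below every CLP mouse. Without CLP+DCA 3 the median was -0.81 with 10 genes lower past the FDR, and without it and CLP 3 it was -0.97 with 24. Among all genes 2.63% were lower past the FDR without CLP+DCA 3 and 8.64% without both. Without CLP 2 the median was -0.19.

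Saa3, an inflammatory serum amyloid, was at 12.3 to 19.5 CPM in sham, 4299.8, 8344, 4346 and 9008 CPM in CLP and 2029, 1204, 6983 and 976 CPM in CLP+DCA (-1.22 ± 0.55, and -2.21 ± 0.35 without CLP+DCA 3). A2m, alpha-2-macroglobulin, spanned the widest range, at 267, 2098, 191 and 2345 CPM in CLP and 18.5, 11.8, 3011 and 5.06 CPM in CLP+DCA (-0.69 ± 1.58, and -6.70 ± 1.10 without CLP+DCA 3). Lcn2, lipocalin 2, which withholds iron from bacteria, was at 3669, 13489, 3479 and 10651 CPM and 1625, 1759.7, 9572 and 922 CPM (-1.17 ± 0.68). In all 3 genes CLP+DCA 1, 2 and 4 were under each CLP mouse and above sham, and CLP+DCA 3 lay within or above the CLP range. Hp, haptoglobin, was at 20724 to 41093 CPM in CLP and 16751, 23482 and 14973 CPM in CLP+DCA 1, 2 and 4, against 33440 CPM in CLP+DCA 3 (-0.54 ± 0.28).

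Several genes of inflammation were distributed in the same way. Others were not: Rela, Cxcl1 and Pim1, described above, separated the groups with CLP+DCA 3 on the CLP+DCA side. Socs3, the feedback inhibitor of STAT3, was at 131, 157, 135 and 142 CPM in CLP and 74.3, 45.8, 198 and 56.8 CPM in CLP+DCA (-0.59 ± 0.38). Reg3b, an antibacterial lectin that follows STAT3, was at 153, 387, 149.9 and 303 CPM and 22.9, 6.52, 489 and 6.52 CPM (-0.92 ± 1.13). Tnfaip3, the brake of NF-kappaB, was at 7.17, 54.2, 9.26 and 52.6 CPM and 3.64, 4.34, 34.2 and 3.85 CPM (-1.40 ± 0.83). Each was highest in CLP+DCA 3 among the CLP+DCA mice by a wide margin. Cd14, the co-receptor for bacterial lipopolysaccharide, had its highest value of all 12 mice there, with 8.96, 294, 24.2 and 111 CPM in CLP and 3.83, 7.16, 822 and 2.004 CPM in CLP+DCA, so that its difference was 0.93 ± 1.58 with and -4.66 ± 1.15 without that mouse. Of 27 genes of NF-kappaB and Toll-like receptor signalling, 21 were lower (median -0.25, from -0.40 without CLP+DCA 3 to -0.11 without CLP+DCA 1). At an unadjusted p under 0.05 stood 1 higher and 1 lower gene, against 5.06% and 4.94% of all genes. Of 21 chemokines 12 were lower and 9 higher (median -0.04, from -0.39 without CLP+DCA 3 to 0.02 without CLP+DCA 4). Il1b, interleukin 1 beta, was at 3.46, 4.26, 2.15 and 2.92 CPM and 1.37, 1.11, 2.63 and 1.27 CPM (-0.99 ± 0.31).

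Neutrophil markers were also high in CLP+DCA 3. Of 20 listed, 15 passed the filter and 14 of these were lower in CLP+DCA (median -0.77). At an unadjusted p under 0.05 stood 3 lower ones, against 4.94% of all genes. S100a9, a calcium-binding protein that neutrophils hold in bulk, was at 2.06 to 2.57 CPM in sham, 12.7, 16.8, 13.2 and 11.8 CPM in CLP and 1.56, 4.40, 20.5 and 1.72 CPM in CLP+DCA (-0.94 ± 0.65). Of S100a9, CLP+DCA 1, 2 and 4 held less than any CLP mouse, and CLP+DCA 3 more. The summed markers, most of which is Lcn2 (a gene that hepatocytes also express), were at 3525 to 13545 CPM in CLP and 932 to 9642 CPM in CLP+DCA, and Mpo was at 0 to 4 reads in every mouse. Without CLP+DCA 3 the median was -2.17 with 10 genes lower past the FDR, against 2.63% of all genes. It was -0.48 without CLP+DCA 1. How far neutrophil RNA enters the differences of chemokines and other inflammatory genes was not tested.

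**Figure D5:**
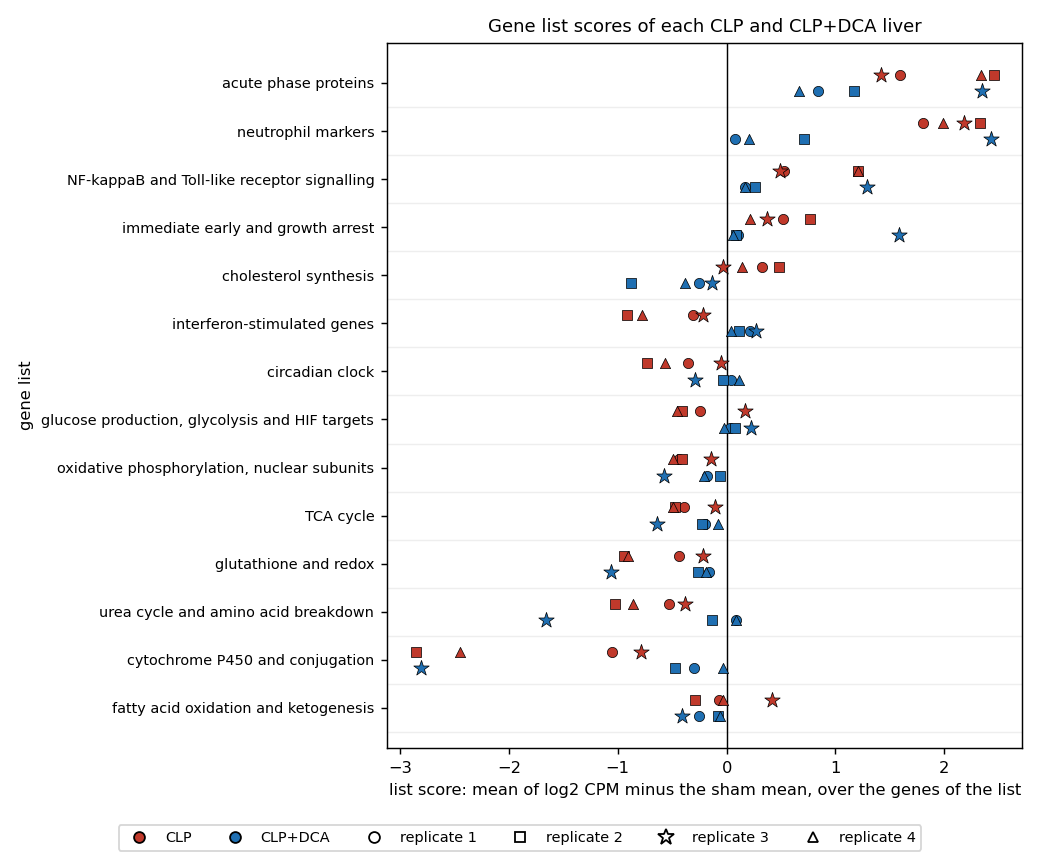
Scores of 14 gene lists (rows; x axis, mean log2 CPM of the genes of the list minus the sham mean) in the 4 CLP (red) and 4 CLP+DCA (blue) livers, with 1 symbol per replicate. Interferon-stimulated and cholesterol genes separate the groups with CLP+DCA 3 (blue star) on the CLP+DCA side, in cholesterol genes narrowly, beside CLP 3 (red star). In acute phase, neutrophil, P450 and urea cycle genes CLP+DCA 3 lies with the CLP livers or beyond them.

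For genes of the complex that DCA acts on, no difference passed the FDR with all mice. Of 20 genes of pyruvate dehydrogenase, its regulators and pyruvate transport, 8 were higher and 12 lower, with a median of -0.11. Lower under an unadjusted p of 0.05 were 3 genes, against 4.94% of all genes, and 0 were higher, against 5.06%. The median was -0.000695 without CLP 3 and 0.00596 with library size alone as the scaling. Past the FDR were 3 lower genes without CLP+DCA 3, against 2.63% of all genes. Without both CLP+DCA 3 and CLP 3, 3 higher (Pdhb, Pdk2 and Mpc2) and 4 lower genes (Pdk4, Pdp1, Ldhd and Slc16a1) passed it, against 8.27% and 8.64% of all genes. All 5 subunit genes of the complex lay within 0.25 of 0 on the log2 scale, Pdhb at 0.23 and Pdha1 at -0.16. Among the kinases, Pdk1 was at 32.5, 23.2, 46.1 and 26.7 CPM in CLP and 37.4, 38.1, 37.6 and 43.0 CPM in CLP+DCA (0.28 ± 0.22), and Pdk2 at 66.6, 46.6, 84.0 and 61.2 CPM and 86.3, 78.6, 41.8 and 96.9 CPM (0.23 ± 0.23). Pdk3 stayed at or under 1.60 CPM in each mouse. Pdk4, the kinase that fasting and glucocorticoids induce (mm10 chr6:5483351-5496278, minus strand), was at 2.57, 2.70, 2.82 and 3.01 CPM in sham, 2.67, 18.2, 151 and 9.38 CPM in CLP and 2.17, 1.34, 10.3 and 1.46 CPM in CLP+DCA (-3.55 ± 1.11, adjusted p = 0.372). Its highest value was in CLP 3, the liver with muscle RNA, and muscle is a tissue rich in Pdk4, whose part was not tested. Without CLP 3 its adjusted p was 0.478. CLP+DCA 1, 2 and 4 were under every CLP and every sham mouse. Pdp1, a phosphatase that reactivates the complex, was at 3.69, 6.51, 4.01 and 6.11 CPM in CLP and 0.798, 1.48, 9.34 and 2.26 CPM in CLP+DCA (-0.53 ± 0.59). Gstz1, the enzyme that breaks down DCA, was at 508, 378, 554 and 452 CPM and 567, 599.5, 219 and 588 CPM (0.06 ± 0.26), so that CLP+DCA 3 held the least of it of all 12 mice. Without both CLP+DCA 3 and CLP 3 its adjusted p was 0.0499, and without CLP+DCA 3 alone 0.146.

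Nuclear genes of oxidative phosphorylation, which encode the respiratory chain and ATP synthase, were slightly higher in CLP+DCA as a list. Of 77 genes 73 were higher, with a median of 0.11 against 0.01 over all genes, and 0 of 77 were under an unadjusted p of 0.05 in edgeR. DESeq2 called 0 of them with 8 or 12 mice. Voom with quality weights called 19, all higher, against 613 higher of 13190 genes (9.76% called in both directions together). The medians of complexes I to V were 0.09, 0.08, 0.15, 0.13 and 0.14. Ndufs8 of complex I was at 37.7, 35.7, 44.9 and 32.5 CPM in CLP and 51.4, 57.4, 31.2 and 49.9 CPM in CLP+DCA (0.33 ± 0.16). Sdhb of complex II was at 81.8, 63.8, 103 and 65.3 CPM and 111, 112, 57.1 and 119 CPM (0.34 ± 0.22), against 123 to 139.5 CPM in sham. CLP+DCA 3 held the lowest septic value of both genes and was nearer to CLP in 75 of the 77 genes (97.4%). CLP 3 was the highest of its group in both. Without CLP+DCA 3 the median was 0.21 with 1 of 77 genes higher past the FDR, against 2.01% of all genes. Without CLP 3 it was 0.20 with none. Without both it was 0.29 with 35 of 77 higher, against 8.27% of all genes. Skeletal muscle, whose RNA CLP 3 carries, is itself rich in transcripts of oxidative phosphorylation, and its part was not tested. Without CLP+DCA 2 the median was 0.05, and 52 to 77 genes were higher in each of the 23 settings.

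Genes of the tricarboxylic acid cycle were higher in 15 of 20, with a median of 0.07 that depended on single mice. It was 0.03 without CLP 4 or CLP+DCA 4, 0.05 without CLP+DCA 2, and 0.14 without CLP 3 or CLP+DCA 3. Without both CLP+DCA 3 and CLP 3 it was 0.24 with 5 genes higher past the FDR, against 8.27% of all genes. Fh1, fumarase, was the gene without overlap, at 142, 182, 184 and 138 CPM in CLP and 216, 195, 223 and 275 CPM in CLP+DCA (0.49 ± 0.18). Of all genes 2.32% were higher without overlap. In fatty acid oxidation and ketogenesis, 28 of 40 genes were lower (median -0.18), among them Crat, described above, without overlap. Without CLP 3 the median was -0.08 and without CLP+DCA 1 it was -0.12, and 7 to 19 of the 40 genes were higher over the 23 settings.

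The scores of the cytochrome P450 and urea cycle lists were above every CLP mouse in CLP+DCA 1, 2 and 4 and not in CLP+DCA 3. CLP+DCA 3 was nearer to CLP in 93.3% and 75% of their genes, against 71.5% of all genes. Tat, described above and part of the urea cycle and amino acid list, was higher in all 4 CLP+DCA mice. Of 30 cytochrome P450 and conjugation genes, 27 were higher with a median of 0.73. Of these 5 were under an unadjusted p of 0.05, against 5.06% of all genes, and none past the FDR. Without CLP+DCA 3 the median was 1.02 with 4 higher past it, against 2.01% of all genes. Without CLP+DCA 4 the median was 0.44. Cyp1a2, which oxidizes caffeine and many drugs, was at 198 to 422 CPM in sham, 30.0, 7.66, 68.0 and 9.43 CPM in CLP and 174, 129, 14.98 and 237 CPM in CLP+DCA (2.26 ± 0.80). Urea cycle and amino acid genes were higher in 18 of 20 (median 0.49), Otc, ornithine transcarbamylase, standing at 190.3, 41.0, 214 and 99.3 CPM and 293, 282, 40.2 and 372 CPM (0.86 ± 0.58). Car3, carbonic anhydrase 3, was at 562 to 957 CPM in sham, 13.7, 1.44, 101 and 2.11 CPM in CLP and 268, 171, 5.17 and 416 CPM in CLP+DCA (2.86 ± 1.30). In these 3 genes CLP+DCA 1, 2 and 4 were above each CLP mouse and CLP+DCA 3 within or under the CLP range.

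Glutathione and redox genes were higher in 37 of 51 (median 0.17). Gstm1, a glutathione transferase, was at 238, 95.7, 417 and 92.4 CPM in CLP and 732, 543, 127 and 527 CPM in CLP+DCA (1.19 ± 0.55). Gpx1, which reduces hydrogen peroxide, was at 877, 550.5, 977 and 467 CPM and 1240, 1480.3, 526 and 1395 CPM (0.69 ± 0.32). In both genes CLP+DCA 3 lay in the CLP range and the other CLP+DCA mice above it. The list has 2 genes under an unadjusted p of 0.05 in each direction, against 5.06% higher and 4.94% lower among all genes. Without overlap were 0 higher and 3 lower genes, against 2.32% and 2.05% of all genes. The 3 are Csad, Cdo1 and Mat1a, the enzyme that makes S-adenosylmethionine (-0.28 ± 0.17). Past the FDR were 1 higher and 1 lower gene without CLP+DCA 3, where 2.01% and 2.63% of all genes passed. Without both CLP+DCA 3 and CLP 3, 17 higher and 2 lower did so, where 8.27% and 8.64% of all genes passed. Gsta2, another transferase, was at 4.24 to 13.0 CPM in sham and under 1 CPM in each CLP mouse, and at 1.98, 2.49, 0.0542 and 2.16 CPM in CLP+DCA (2.22 ± 0.92).

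Genes of glucose production and glycolysis were higher in 27 of 33 (median 0.31), with 8 of them under an unadjusted p of 0.05, against 5.06% of all genes. Past the FDR were 0 with all mice, 3 higher without CLP+DCA 3 and 6 higher without both CLP+DCA 3 and CLP 3. Among all genes 2.01% were higher past it without CLP+DCA 3 and 8.27% without both. G6pc, which releases glucose from the hepatocyte, was at 107, 195, 99.9 and 142 CPM in sham, 44.4, 44.9, 66.8 and 46.6 CPM in CLP and 154, 145, 64.0 and 168 CPM in CLP+DCA (1.39 ± 0.30). Pck1, the gatekeeper of gluconeogenesis, was at 1969, 1632, 2726 and 2076 CPM and 3547, 3834, 2141 and 3990.1 CPM (0.69 ± 0.21). In both genes CLP+DCA 3 alone lay in the CLP range. Pfkl, the liver phosphofructokinase of glycolysis, did not overlap, at 32.9, 31.0, 31.4 and 31.6 CPM and 36.4, 34.3, 61.4 and 37.9 CPM (0.42 ± 0.16), and was highest in CLP+DCA 3. Igfbp1, which binds insulin-like growth factors and is turned on by fasting and stress, was at 52.3, 227, 53.1 and 74.1 CPM in CLP and 39.9, 38.5, 1105 and 49.6 CPM in CLP+DCA, its difference being 1.60 ± 1.10 with and -1.25 ± 0.69 without CLP+DCA 3. Igf1 was higher without overlap by a small amount, at 451 to 479.5 CPM and 499.8 to 586 CPM (0.21 ± 0.10).

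Genes of the unfolded protein response of the endoplasmic reticulum were mostly lower and heat shock genes mostly higher. Of 25 genes of that response, regulators included, 22 were lower with a median of -0.38. Of 13 heat shock genes, which are not all cytosolic and not all chaperones, 11 were higher with a median of 0.41. Hspa5, the main chaperone of the reticulum, was at 1369, 2388, 803 and 1952 CPM in CLP and 923, 1098, 1924 and 886 CPM in CLP+DCA (-0.43 ± 0.32). With all mice 2 genes of the unfolded protein response were lower and 2 heat shock genes higher under an unadjusted p of 0.05. The shares among all genes were 4.94% lower and 5.06% higher. None of these genes passed the FDR. The medians were -0.68 and 0.62 without CLP+DCA 3. Without both CLP+DCA 3 and CLP 3, 16 genes of the unfolded protein response were lower and 8 heat shock genes higher past the FDR. Among all genes 8.64% were lower and 8.27% higher past it in that fit. Of 18 cell cycle genes 17 were higher (median 0.42), most of them at low levels. Of these 5 were under an unadjusted p of 0.05, against 5.06% of all genes. Ribosomal proteins, taken as a reference, had a median of 0.03 with 0 of 38 under that p (-0.03 without CLP+DCA 2, 0.12 without CLP+DCA 4).

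Among markers of other cells, 13 of 17 endothelial and 11 of 14 stellate cell genes were lower in CLP+DCA, with medians of -0.20 and -0.23. These were -0.37 and -1.16 without CLP+DCA 3, without CLP+DCA 4 the endothelial median was -0.08, and without CLP+DCA 1 the stellate median was -0.10. Vwf, von Willebrand factor, was at 9.12, 10.3, 10.1 and 5.61 CPM in CLP and 3.86, 2.62, 10.5 and 2.86 CPM in CLP+DCA (-0.83 ± 0.39), with CLP+DCA 3 just above every CLP mouse. Lck, a kinase of T cells, was under 1 CPM in all mice and higher without overlap, at 0.300 to 0.411 CPM and 0.460 to 0.734 CPM (0.76 ± 0.23). Of 18 hepatocyte markers 13 were higher, with a median of 0.25 and summed levels of 72133 to 80340 CPM in CLP and 68346 to 89609 CPM in CLP+DCA, the lowest again in CLP+DCA 3. Their median was 0.09 without CLP 2 and 0.47 without CLP+DCA 3.

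The other lists held no gene past the FDR with all mice, and their medians depended on single mice. Of 14 plasma proteins that fall in the acute phase 12 were higher, with a median of 0.30 (0.18 without CLP+DCA 4, 0.47 without CLP+DCA 3). Of 16 bile acid genes 12 were higher, with a median of 0.23 (0.10 without CLP 2, 0.55 without CLP+DCA 3). Of 15 genes of the growth hormone and IGF axis 10 were higher, with a median of 0.15 (0.07 without CLP+DCA 2, 0.24 without CLP 1). Of 17 genes of IL-6 and STAT3 signalling 12 were lower, with a median of -0.12 (-0.35 without CLP+DCA 3, -0.06 without CLP+DCA 2). Of 15 immediate early genes 9 were higher with a median of 0.08. It turned to -0.41 without CLP+DCA 3, with 1 lower gene past the FDR against 2.63% of all genes. Without both CLP+DCA 3 and CLP 3 it was -0.44. Of 7 bile duct markers 6 were lower, with a median of -0.30 (-1.23 without CLP+DCA 3, -0.17 without CLP+DCA 1). The medians of 23 hepatocyte transcription factor and zonation genes and of 17 metallothionein and iron genes were -0.07 and -0.01, and with 1 mouse left out they lay from -0.09 to 0.01 and from -0.03 to 0.06.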

How the data were processed

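Livers of 12 male mice (4 sham, 4 CLP, 4 CLP+DCA) were profiled by sequencing of poly(A)-enriched RNA with paired reads of 100 bases. The deposited values are raw counts per gene, which the authors made by alignment to mm10 with STAR 2.5 and counting with featureCounts of Subread 1.5.0-p1, per the study's methods and the submitters' processing notes. The annotation and strand setting are not given in the sources used here, so that reads of overlapping and antisense genes, and of near-identical families (Saa, Ifit, Gst, Cyp and others), may be shared among them. Mitochondrial-chromosome genes were not analysed here, and a few genes counted in the lists are not reported here by name.

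Of 25611 genes, 6769 had no reads and 5652 fell under edgeR's filterByExpr (minimum count 10), which left 13190. Counts of all 12 mice were fitted with edgeR 4.0.16 (R 4.3.3; TMM, robust quasi-likelihood), the sham mice adding to the estimate of spread, and the CLP+DCA minus CLP contrast was tested two-sided with Benjamini-Hochberg adjustment. DEGs are genes at an FDR of 0.05. Values with ± are log2 fold changes, CLP+DCA minus CLP, with their standard error (n = 4 against 4), and log2 CPM used a prior count of 2. The study itself used DESeq2, which was run as an alternative (DESeq2 1.42.0), as were limma's voom with sample quality weights (limma 3.58.1), other scalings and filters, a replicate block and leaving out each mouse. The analysis was tested on simulated counts first.

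The rule for named genes took DEGs and, at a mean of 5 CPM or more in CLP or CLP+DCA, 2 further sets. These were the 10 genes of smallest p in each direction and the 8 of largest fold change without overlap in each direction. Other genes were taken from 39 gene lists, those described one by one being chosen after their values were seen. The groups compared, the lists and the genes were all chosen with earlier results of these data known.

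The CLP and CLP+DCA mice share replicate numbers. Nothing in the labels ties mice of the same number, and their deviations from the group means correlated at 0.55, -0.46, -0.42 and -0.07, so the samples were treated as unpaired.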

Additional observations from a re-analysis of the deposited data

Results flagged for a closer look

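In 78 groups of 4 mice, 1 for each list and group that was looked at, 12 had 1 mouse far outside the rest by Dixon's test at the 95% level, and in 228 groups for single genes 28 did. Chance flags about 1 in 20 groups. Of the 12 list scores 10 were of CLP+DCA 3, 1 of CLP 3 and 1 of CLP 4, and of the 28 gene values 16 were of CLP+DCA 3, 3 of CLP 3 and 9 of other mice.

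CLP+DCA 3 lay below its group in the scores (mean log2 CPM relative to sham) of plasma proteins that fall in the acute phase (-1.43), DCA metabolism (-1.04), glutathione and redox genes (-1.06), cytochrome P450 and conjugation genes (-2.80), urea cycle and amino acid genes (-1.65), erythroid markers (-1.46) and hepatocyte markers (-1.30). It lay above its group in NF-kappaB signalling (1.29), immediate early and growth arrest genes (1.58) and stellate cell markers (1.13). CLP 3 lay above its group in skeletal muscle markers (5.58), and CLP 4 apart from its group in endothelial markers (0.25).

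Among genes, CLP+DCA 3 was apart from its group in Usp18 (16.8 CPM), Psmb9 (5.14 CPM), Sik1 (50.9 CPM), G6pc (64.0 CPM), Dbp (3.44 CPM), Per2 (20.5 CPM), Tef (56.8 CPM), Lgalsl (14.2 CPM), Tnfaip3 (34.2 CPM), Cxcl2 (2.03 CPM), Gstz1 (219 CPM), Sdhb (57.1 CPM), Gsta2 (0.0542 CPM), Igfbp1 (1105 CPM), Pfkl (61.4 CPM) and Otc (40.2 CPM). CLP 3 was apart in G6pc (66.8 CPM), Rab36 (6.31 CPM) and Cryab (65.1 CPM). The others were Oasl1 in CLP 2 (3.21 CPM), Ifit1 in CLP+DCA 2 (5.88 CPM), Nsdhl in CLP 2 (131 CPM) and CLP+DCA 2 (44.7 CPM), Insig1 in CLP 1 (408 CPM), Twf2 in CLP+DCA 4 (1.91 CPM), Crat and Csad in CLP 1 (92.1 and 504 CPM) and Pdk1 in CLP+DCA 4 (43.0 CPM).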

How the results depend on the processing

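Of 1 DEG with all mice, the count was 0 with edgeR on the 8 septic mice and at an FDR of 0.01, 6 at an FDR of 0.1, 80 and 136 with DESeq2 on 8 and 12 mice, 1287 with voom, and between 0 and 616 when 1 mouse was left out, 616 being without CLP+DCA 3 and 8 without CLP 3. It was 2227 without both. It stayed at 1 with the other scalings and filters tried. With a replicate block 4 DEGs were found (Irf7 and Dusp1 higher, Syne1 and Dmbt1 lower). Not every mouse correlated best with its own number, so this pairing is not used as a result.

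Without both CLP+DCA 3 and CLP 3 the median of the clock list was 0.81 and of the unfolded protein response and heat shock list -0.42. In that fit it was 0.0141 for the muscle list and -1.88 for the neutrophil list. With voom the medians were -1.08 for muscle, -2.27 for neutrophil and -0.98 for bile duct markers, and with the replicate block -1.97 for muscle and -0.86 for bile duct markers. With 1 mouse left out the lowest and highest medians were -0.205 and -0.0107 for triglyceride synthesis (highest without CLP 2), -4.88 and -0.0548 for muscle (highest without CLP 3), -2.17 and -0.48 for neutrophil, -1.16 and -0.10 for stellate cell, and -1.23 and -0.17 for bile duct markers (the lowest of these 3 without CLP+DCA 3).

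Cd14 reversed from 0.93 to -2.95 with voom, -2.18 with the replicate block, -4.66 without CLP+DCA 3 and -5.00 without both, and was at most 2.13 with another mouse left out. Igfbp1 reversed from 1.60 to -0.75, -1.25 and -1.46 with voom, without CLP+DCA 3 and without both, and was at most 2.37. Gstz1 reversed from 0.06 to between -0.0635 and -0.013 without CLP 2, CLP+DCA 1, CLP+DCA 2 or CLP+DCA 4. Its value was 0.31 without CLP+DCA 3 and highest, at 0.39, without both CLP+DCA 3 and CLP 3. The causes were not tested. The other named genes kept their direction in the settings run. With 24436513 to 44266819 reads per liver, depth limits mainly the precision of genes under 1 CPM.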
